A study of Mus musculus with 6 samples.

Results

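The macrophage, complement C1q and class II antigen presentation genes examined here are C1qa, C1qb, C1qc, Csf1r, Cd68, Lyz2, H2-Aa, H2-Ab1, Cd74 and Ptprc. Members were all probe sets that the platform annotation gives to these 10 genes and to no other, which came to 20 of 45037 tested probe sets. The arrays hold RNA from whole kidneys of male mice aged 2 to 3 months, with 3 samples of wild-type (WT) mice and 3 of mice without the orphan nuclear receptor ERRα (ERRa KO), 1 array per sample. All animals were kept on a light-dark cycle with free access to standard diet, and left and right kidneys were ground together, per the labels. The labels call the replicates biological without stating separate animals, so the p-values measure the spread between these samples. The sources used here do not name the strain, the part of Esrra that was removed or the hour of collection. Levels are log2 values after RMA, and each difference is the ERRa KO mean minus the WT mean on that scale.

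C1q is the recognition molecule of the classical complement pathway. Its A, B and C chains assemble into one bouquet-shaped molecule, and macrophages and dendritic cells, rather than hepatocytes, are its main source. Class II molecules of the major histocompatibility complex (MHC-II) present peptides to CD4+ T cells on the surface of macrophages, dendritic cells and B cells. Their genes share a promoter module of S, X and Y boxes on which the coactivator CIITA assembles. The mouse kidney holds a dense network of resident macrophages between its tubules, and these cells carry both C1q and MHC-II.

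The shared module can be read in the promoters of class II genes. The stretches below are from RefSeq promoter sequences on GRCm38.p6, 5′ to 3′ on the strand of each gene, all on chromosome 17, and the capitals mark GCAAC, letters found in X boxes, and ATTGG, the inverted CCAAT of the Y box. They are shown because the class II members all had higher means in ERRa KO kidneys.
H2-Aa: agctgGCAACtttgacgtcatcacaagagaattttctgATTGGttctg
H2-Eb1: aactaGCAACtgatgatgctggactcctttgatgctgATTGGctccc
H2-Ob: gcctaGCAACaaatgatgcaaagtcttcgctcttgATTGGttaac
H2-Oa: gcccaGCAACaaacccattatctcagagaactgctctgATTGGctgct

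The H2-Aa stretch lies at chr17:34287862-34287909 (minus strand), that of H2-Eb1 at chr17:34305771-34305817, that of H2-Ob at chr17:34238813-34238857 and that of H2-Oa at chr17:34092298-34092345, the last 3 on the plus strand. The gap between the marked letters was 28 bases in H2-Aa, 27 in H2-Eb1, 25 in H2-Ob and 28 in H2-Oa, and GCAAC began 76 to 91 bases before the annotated start. Of 32851 promoter sequences of the same length, 0.7% held GCAAC followed by ATTGG on the strand of the gene with a gap of 10 to 40 bases. The sequences for H2-DMb2 and H2-DMa held no such pair in the window.

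The C1q chains are encoded side by side on chromosome 4, and the promoters of C1qb (chr4:136886151-136886450, minus strand) and C1qc (chr4:136892865-136893164, minus strand) are printed because both transcripts read lower in every ERRa KO array. The capitals mark GAGGAA, or its complement TTCCTC, the core letters of sites for the macrophage factor PU.1.
C1qb: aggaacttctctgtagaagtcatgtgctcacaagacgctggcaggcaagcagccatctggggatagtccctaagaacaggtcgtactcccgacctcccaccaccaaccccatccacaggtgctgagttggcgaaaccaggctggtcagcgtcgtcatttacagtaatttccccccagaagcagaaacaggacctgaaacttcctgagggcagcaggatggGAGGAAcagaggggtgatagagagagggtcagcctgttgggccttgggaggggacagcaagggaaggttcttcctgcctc
C1qc: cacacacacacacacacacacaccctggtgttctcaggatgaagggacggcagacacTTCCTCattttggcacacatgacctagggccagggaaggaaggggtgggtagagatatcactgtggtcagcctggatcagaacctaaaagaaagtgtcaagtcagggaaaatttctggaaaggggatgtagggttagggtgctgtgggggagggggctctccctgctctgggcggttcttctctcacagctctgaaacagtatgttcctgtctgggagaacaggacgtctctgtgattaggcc

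Each of these 2 windows held 1 match to GAGGAA on either strand, and 28.3% of all promoter sequences held at least 1. Among other members with a promoter sequence, Cd68 held 2 matches, Lyz2 and H2-Aa held 0, and the Ptprc windows held 1 and 0. The letters AAGGTCA, the core of the element to which ERRα binds, were found on neither strand in the windows of the 6 members that matched the promoter table, C1qb, C1qc, Cd68, Lyz2, H2-Aa and Ptprc. They were found in 4.72% of all promoter sequences. These matches describe letters and say nothing of binding.

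Several facts of the whole series bear on the values. The targeted gene Esrra read 9.46 ± 0.05 (SD, n = 3) in WT and 6.53 ± 0.13 in ERRa KO kidneys on the log2 scale (limma adjusted p = 9.85e-06). A table deposited by the authors heads its columns with the genotypes exchanged against the sample records. Genotypes were taken from the sample records, under which Esrra was low in ERRa KO kidneys. The fold change in the authors' table also follows the records. Under its column heads every direction below would turn, and so would that of Esrra. Defining transcripts of nephron cells averaged 11.87 to 12.04 in WT and 11.83 to 12.01 in ERRa KO arrays, which matches the labelled tissue. ERRa KO replicate 3 stood apart, with the liver transcript Alb at 12.07 against 6.48 to 6.80 in the other 5 arrays. Member differences that rest on this array are also given without it.

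No member passed the threshold. By limma with Benjamini-Hochberg adjustment over all 45037 probe sets, 0 of the 20 member probe sets had an adjusted p under 0.05, where 0.111% of all probe sets did (0.0644% higher and 0.0466% lower in ERRa KO kidneys). At an unadjusted p under 0.05 there were 10 member probe sets, 5 lower and 5 higher in ERRa KO kidneys, beside 10.9% of all probe sets, 5.77% lower and 5.1% higher. A linear model without limma's sharing of variance across probe sets called 0 members and 0 probe sets in all. Of the 20, the authors' deposited table gave 6 an unadjusted p under 0.05, 4 higher and 2 lower in ERRa KO kidneys. Over all tested probe sets, the authors' deposited table gave 9.51% such a p, 4.6% higher and 4.91% lower.

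The members did not all lie on the same side of WT. All 5 C1q probe sets and the Cd68 probe set read lower in every ERRa KO array than in any WT array. The H2-Aa, H2-Ab1 and Cd74 probe sets, 8 in all, had higher means in ERRa KO kidneys, and 6 of them did not overlap. Csf1r, Lyz2 and Ptprc overlapped throughout. In total the groups did not overlap in 12 of 20 member probe sets, 6 below and 6 above WT, beside 16.5% of all probe sets, 8.39% below and 8.11% above. Probe sets of 1 gene read the same transcript, so these counts are not independent. The median difference of the 10 genes, each by its brightest probe set, was -0.04 on the log2 scale, and that of all 18193 genes was 0.01.

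**Figure D1:**
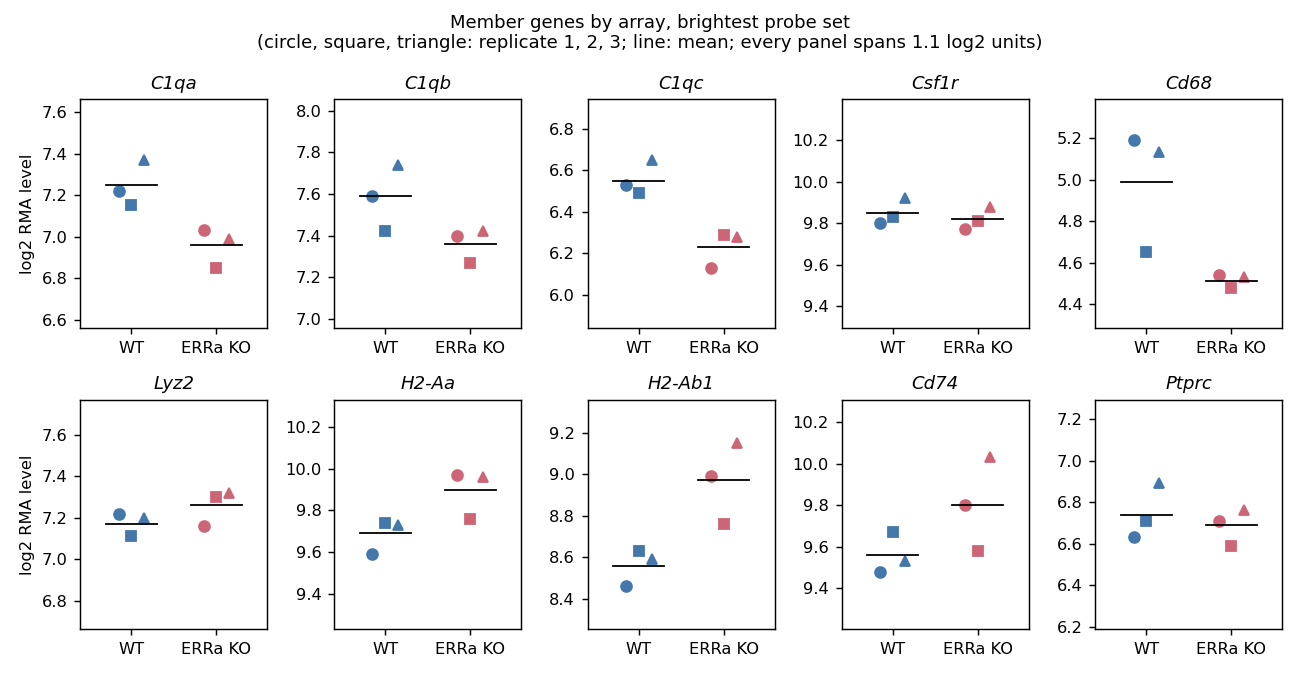
Log2 RMA level (y axis) of the brightest probe set of each of the 10 genes in the 3 WT and 3 ERRa KO arrays (x axis), with marker shape for the replicate and a line at the group mean. The C1q genes and Cd68 sit lower in ERRa KO arrays, H2-Aa and H2-Ab1 sit higher, and Csf1r, Lyz2, Cd74 and Ptprc overlap.

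C1qc, the C chain gene, read 6.53, 6.49 and 6.65 in WT replicates 1 to 3 and 6.13, 6.29 and 6.28 in ERRa KO replicates 1 to 3. Every ERRa KO array lay below every WT array, with a gap of 0.2 between the groups. The log2 difference was -0.32 (SE 0.07, 95% interval -0.50 to -0.15, limma adjusted p = 0.181), or 0.799 of the WT level. This was the smallest adjusted p of the 20 probe sets, and it missed the threshold.

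C1qa, the A chain gene, read 7.22, 7.15 and 7.37 in WT and 7.03, 6.85 and 6.99 in ERRa KO kidneys. Again the groups did not overlap, and WT replicate 3 was the highest array. The difference was -0.29 (SE 0.08, 95% interval -0.48 to -0.10, limma adjusted p = 0.27), or 0.818 of the WT level.

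C1qb, the B chain gene, had 3 probe sets. The brightest, 1417063_at, read 7.59, 7.42 and 7.74 in WT and 7.40, 7.27 and 7.42 in ERRa KO kidneys, a difference of -0.22 (SE 0.09, limma adjusted p = 0.43). The other C1qb probe sets differed by -0.18 (1434366_x_at, limma adjusted p = 0.494) and -0.34 (1437726_x_at, limma adjusted p = 0.434). Here the separation was thin: the groups lay apart by 0.007, 0.001 and 0.004 in the 3 probe sets, far less than the spread between replicates (SD 0.08 to 0.29). Names ending in _x_at mark probe sets whose probes may also match other transcripts.

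WT replicate 3 was the highest array in 5 of 5 C1q probe sets. Without that array the differences were -0.23 for C1qa and -0.28 for C1qc, against -0.29 and -0.32 with it. The 3 C1qb probe sets, in the order above, went from -0.22, -0.18 and -0.34 to -0.15, -0.14 and -0.17. All 5 kept their sign, and none passed the threshold with that array left out (limma adjusted p = 0.467 to 0.781). With ERRa KO replicate 3 left out, the C1q probe sets differed by -0.24 to -0.39. The mean of the 3 C1q genes was 7.02 to 7.25 in WT arrays and 6.80 to 6.90 in ERRa KO arrays. In a ground kidney, fewer cells of a type and less RNA per cell cannot be told apart.

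Cd68 encodes a glycosylated lysosomal protein of macrophages. It was dim on this array, at 5.19, 4.65 and 5.13 in WT and 4.54, 4.48 and 4.53 in ERRa KO kidneys. The ERRa KO arrays were close together and all below WT, whose replicate 2 lay nearest to them. The log2 difference was -0.48 (SE 0.13, 95% interval -0.78 to -0.17, limma adjusted p = 0.269), the most negative of the 20 probe sets, or 0.719 of the WT level. In the fit of 1 probe set per gene, leaving out WT replicate 2 put Cd68 past the threshold (-0.65, limma adjusted p = 0.0493). No other member passed in any fit that left out 1 array.

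Csf1r is the receptor for the growth factors CSF1 and IL-34, on which kidney macrophages depend. Its 3 probe sets differed by -0.03, 0.00 and 0.07. The brightest, 1419872_at, read 9.80, 9.83 and 9.92 in WT and 9.77, 9.81 and 9.88 in ERRa KO kidneys, and its 95% interval was -0.18 to 0.13 (limma adjusted p = 0.918). That interval holds differences of either sign. The sign of the Csf1r difference turned when the 3 probe sets were averaged (0.01).

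Of the ligands, Csf1 read 7.04 ± 0.04 (SD, n = 3) in WT and 7.07 ± 0.03 in ERRa KO kidneys (difference 0.02, limma adjusted p = 0.884). Il34, which tubule cells make, read 7.60 ± 0.09 and 7.43 ± 0.12 (difference -0.17, limma adjusted p = 0.455). Neither ligand passed the threshold, and both overlapped between the genotypes.

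Lyz2 encodes the lysozyme of macrophages and neutrophils. It read 7.22, 7.11 and 7.20 in WT and 7.16, 7.30 and 7.32 in ERRa KO kidneys, with a difference of 0.09 (95% interval -0.08 to 0.25, limma adjusted p = 0.716). Its close relative Lyz1, whose sequence is close enough that probes may bind both, differed by 0.01 (limma adjusted p = 0.955).

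Ptprc encodes CD45, the surface phosphatase carried by all white blood cells. The brighter probe set read 6.63, 6.71 and 6.89 in WT and 6.71, 6.59 and 6.76 in ERRa KO kidneys, and the groups overlapped. Its difference was -0.05 (95% interval -0.25 to 0.14, limma adjusted p = 0.864). The other probe set, at 3.12 ± 0.08 (SD, n = 3) and 3.05 ± 0.20, was near the bottom of the array's range and differed by -0.07.

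**Figure D2:**
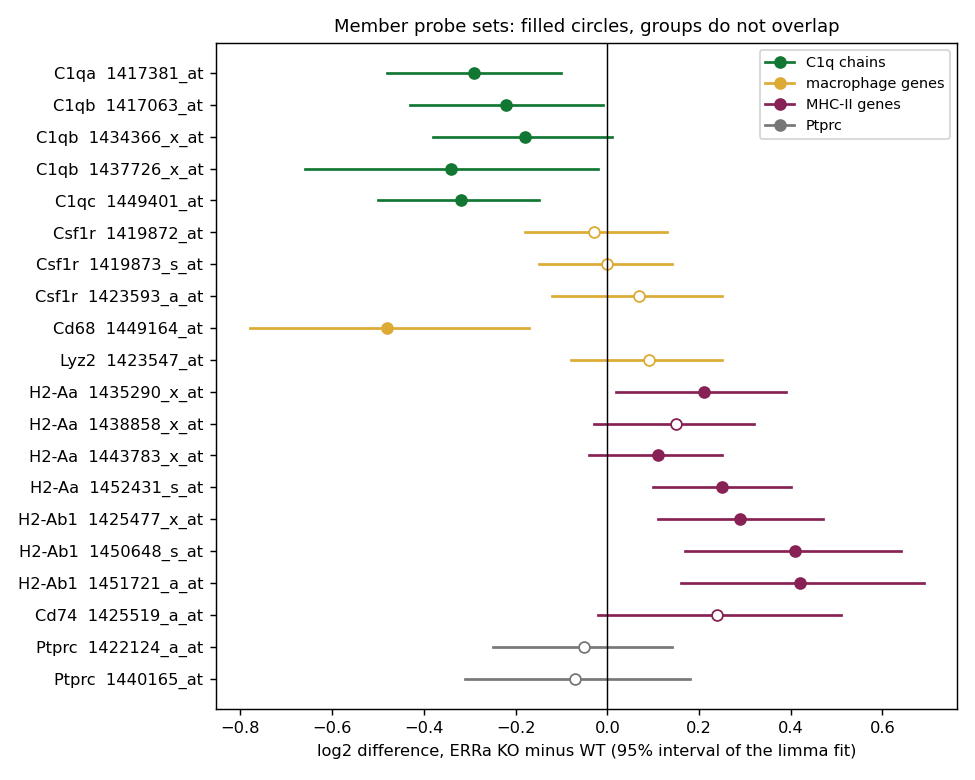
Log2 difference, ERRa KO minus WT (x axis), of each member probe set (y axis), with the 95% interval of the limma fit as a line. Filled circles mark probe sets whose groups do not overlap, 5 of 5 for C1q and 6 of 8 for MHC-II, beside 16.5% of all probe sets. The C1qb probe sets lay apart by 0.007, 0.001 and 0.004 only.

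H2-Ab1 encodes the beta chain of the class II molecule I-A. The brightest of its 3 probe sets, 1450648_s_at, read 8.46, 8.63 and 8.59 in WT and 8.99, 8.76 and 9.15 in ERRa KO kidneys. All ERRa KO arrays were above all WT arrays. The difference was 0.41 (SE 0.10, 95% interval 0.17 to 0.64, limma adjusted p = 0.224), or 1.32-fold. Its other probe sets differed by 0.42 (1451721_a_at, limma adjusted p = 0.249) and 0.29 (1425477_x_at, limma adjusted p = 0.254), and neither overlapped between the genotypes.

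H2-Aa encodes the alpha chain of the same molecule and lies next to H2-Ab1. Probe set 1435290_x_at, the brightest of 4, read 9.59, 9.74 and 9.73 in WT and 9.97, 9.76 and 9.96 in ERRa KO kidneys, a difference of 0.21 (SE 0.08, limma adjusted p = 0.406). ERRa KO replicate 2 lay only 0.021 above the highest WT array. The 4 H2-Aa probe sets differed by 0.11 to 0.25, and 1452431_s_at had the widest separation, with 7.95, 7.98 and 7.88 in WT and 8.22, 8.11 and 8.24 in ERRa KO kidneys (limma adjusted p = 0.238). One of the 4, 1443783_x_at, read about 3 on every array and carries little signal.

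Cd74 encodes the invariant chain, which fills the class II groove until a peptide is loaded. It read 9.48, 9.67 and 9.53 in WT and 9.80, 9.58 and 10.03 in ERRa KO kidneys. ERRa KO replicate 2 fell within the WT range, so the groups overlapped. The difference was 0.24 (SE 0.11, 95% interval -0.02 to 0.51, limma adjusted p = 0.513), and 0.13 without ERRa KO replicate 3 (limma adjusted p = 0.698).

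Within each genotype the class II genes followed the same arrays. ERRa KO replicates 3 and 1 were the highest array in 5 and 3 of the 8 class II probe sets, and WT replicate 1 was the lowest in 6 of 8. ERRa KO replicate 3 is also the array in which Alb stood out. Without it the difference of 1450648_s_at of H2-Ab1 went from 0.41 to 0.31, while 1451721_a_at went from 0.42 to 0.40 and the 4 H2-Aa probe sets ranged from 0.09 to 0.22. All 8 differences kept their sign in each fit that left out 1 array, with 0 of them past the threshold.

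The mean of the 3 MHC-II genes was 9.18, 9.35 and 9.28 in WT replicates 1 to 3 and 9.59, 9.37 and 9.71 in ERRa KO replicates 1 to 3. Subtracting the C1q mean of the same array gave 2.06, 2.33 and 2.03 in WT and 2.74, 2.56 and 2.82 in ERRa KO kidneys. Only the shift of this difference between arrays can be read, since levels of different probe sets are not comparable. The shift was 0.56 on the log2 scale. The genotypes could not overlap in it, since every ERRa KO array had a lower C1q mean and a higher MHC-II mean than any WT array. The shift was computed after both groups of genes had been seen and was not tested.

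Other class II genes were read from a list of 21 class II and antigen processing genes, of which 20 were measured. None passed the threshold (limma gene fit, in which 0.495% of 18193 genes did). At an unadjusted p under 0.05, 5 were higher and 0 lower, beside 6.22% and 6.2% of all genes. The list had 12 genes higher and 8 lower with a median of 0.05. H2-DMa, a chain of the DM molecule that exchanges the invariant chain peptide for antigen, read 6.33, 6.49 and 6.35 in WT and 6.83, 6.71 and 6.79 in ERRa KO kidneys. The groups did not overlap, and the difference was 0.38 (SE 0.07, limma adjusted p = 0.0709). With a variance trend in the fit, set together with limma's robust option here and below, the limma adjusted p was 0.0335. H2-Oa, a chain of the DO molecule that restrains DM, differed by 0.19 (limma adjusted p = 0.302), and every ERRa KO array was above WT.

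Further class II genes were picked after their values were seen. H2-DMb2 differed by 0.29 (limma adjusted p = 0.307), H2-Eb1, the beta chain of I-E, by 0.21 (limma adjusted p = 0.414) and H2-Ob by 0.13 (limma adjusted p = 0.55). All of these had higher means in ERRa KO kidneys and none passed. H2-Oa, H2-DMb2 and H2-Ob were dim, with WT means of 4.22, 4.14 and 2.91 against array medians of 5.01 to 5.05. Ciita, the master coactivator of class II genes, read 4.43, 4.30 and 3.79 in WT and 4.49, 4.60 and 4.50 in ERRa KO kidneys (difference 0.36, limma adjusted p = 0.393). WT replicate 3 was the low array for Ciita. The X box factors Rfx5, Rfxap and Rfxank differed by 0.09, -0.04 and -0.05, all with overlapping groups, and the lysosomal protease gene Ctss, which trims the invariant chain, by -0.06.

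Class I genes were mixed in sign. Of 11 measured genes 4 were higher and 7 lower with a median of -0.05. None passed the threshold and 0 had an unadjusted p under 0.05 (limma). The heavy chain gene H2-K1 differed by 0.17 (limma adjusted p = 0.416), with every ERRa KO array above WT. B2m, the class I light chain gene, differed by -0.10 (limma adjusted p = 0.617), with overlapping groups. In chromosome order around H2-Aa the class I peptide supply genes Psmb9, Tap1, Psmb8 and Tap2 lie between H2-DMb2 and H2-Ob. They differed by 0.07, -0.06, -0.07 and -0.09. H2-DMb2 (0.29) on one side, and H2-Ob (0.13) and then H2-Ab1 (0.41) on the other, had higher ERRa KO means. H2-Ob, with means of 2.91 in WT and 3.04 in ERRa KO kidneys, was near the bottom of the array's range, and its groups overlapped. Beyond H2-Eb1, H2-Eb2 and H2-Ea differed by -0.03 and 0.05. Among the 19 measured neighbours that are no members, 11 were higher and 8 lower, and 4 did not overlap with ERRa KO above WT (H2-Oa, H2-DMa, H2-DMb2 and Ager), beside 9.11% of all genes. Around C1qc, of 18 such neighbours 10 were higher and 8 lower, and 2 did not overlap with ERRa KO above WT (Luzp1 at 0.08 and Wnt4 at 0.24). None of the 18 lay apart with ERRa KO below WT, beside 9.56% of all genes.

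**Figure D3:**
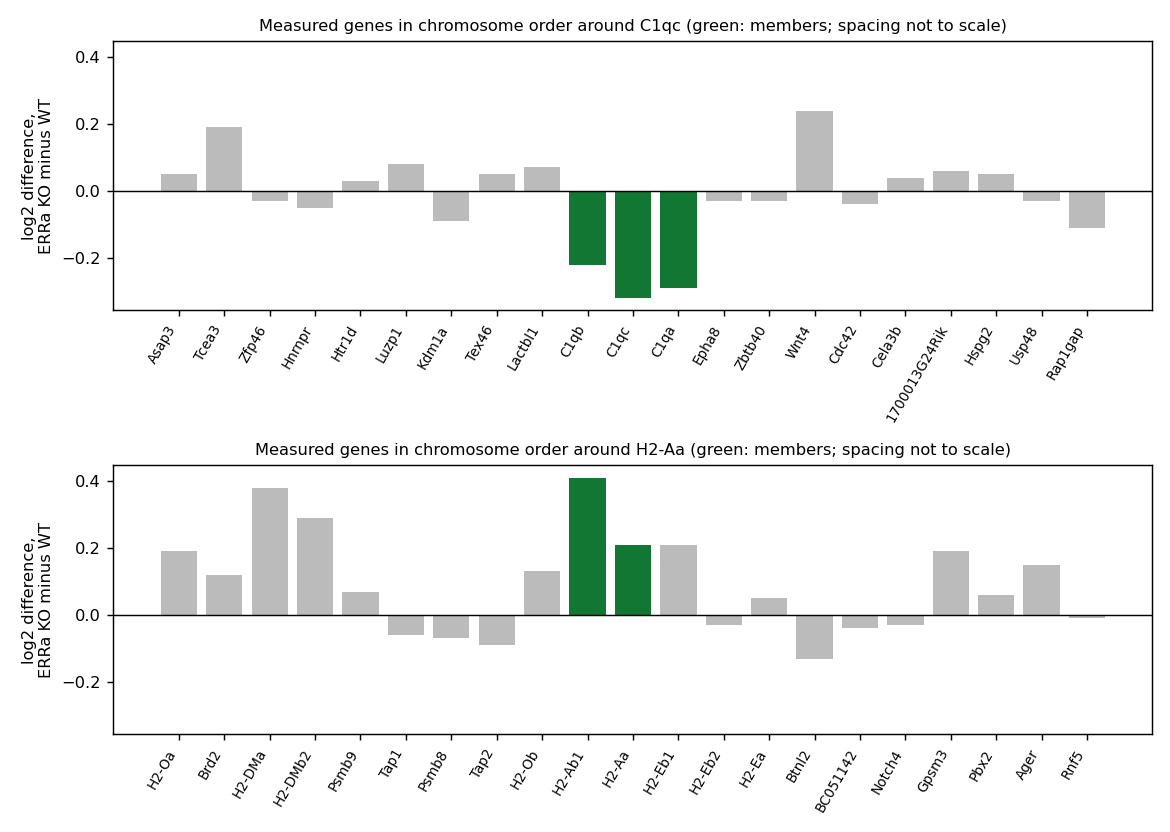
Log2 difference, ERRa KO minus WT (y axis), of measured genes in chromosome order (x axis, spacing not to scale) around C1qc on chromosome 4 and H2-Aa on chromosome 17, with members in green. The 3 adjacent C1q genes read lower between neighbours with a median of 0.04. H2-DMa, H2-DMb2, H2-Ob (0.13), H2-Ab1 and H2-Aa had higher means, with Psmb9, Tap1, Psmb8 and Tap2 between -0.09 and 0.07. H2-Ob was near the bottom of the array's range, and its groups overlapped.

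Other macrophage markers were split in sign. Of 35 genes 33 were measured, 16 higher and 17 lower, with a median of -0.01 and 0 past the threshold (limma). At an unadjusted p under 0.05, 2 were higher and 2 lower, beside 6.22% and 6.2% of all genes. Cd14, the coreceptor for bacterial lipopolysaccharide, read 6.28, 6.18 and 6.54 in WT and 5.95, 6.00 and 5.72 in ERRa KO kidneys (difference -0.44, limma adjusted p = 0.168). Adgre1, which encodes the macrophage antigen F4/80, went the other way, with 5.62, 5.68 and 5.74 in WT and 5.92, 5.91 and 5.85 in ERRa KO kidneys (difference 0.21, limma adjusted p = 0.198). Neither gene overlapped between the genotypes. Genes picked after their values were seen include Fcgr2b, the inhibitory Fc receptor gene, at 0.22 (limma adjusted p = 0.212), and Spi1, which encodes PU.1, at 0.08 (limma adjusted p = 0.767).

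The other complement genes were as mixed, with 8 of 16 higher and 8 lower and a median of -0.01. C1ra and C1s1, whose proteases complete the C1 complex with C1q, differed by -0.14 (limma adjusted p = 0.535) and -0.08 (limma adjusted p = 0.743), with overlapping groups. Cd55, a membrane inhibitor of complement, read 7.99, 7.75 and 7.65 in WT and 7.21, 7.30 and 7.38 in ERRa KO kidneys. Its groups did not overlap, and its difference of -0.50 (SE 0.09, limma adjusted p = 0.086) missed the threshold, which it passed with a variance trend in the fit (adjusted p = 0.0181). Cfb, the factor B gene of the alternative pathway, differed by 0.16 (limma adjusted p = 0.316).

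Signals that draw or instruct macrophages were read from a list of 18 genes, with 17 measured and 0 past the threshold. At an unadjusted p under 0.05, 3 were higher and 0 lower, beside 6.22% and 6.2% of all genes. The chemokine gene Cxcl16 read 8.44, 8.52 and 8.55 in WT and 8.84, 8.87 and 8.77 in ERRa KO kidneys (difference 0.33, SE 0.06, limma adjusted p = 0.0775, and 0.0144 with a variance trend in the fit). Another chemokine gene, Ccl5, differed by 0.57 (SE 0.17, limma adjusted p = 0.222), and in both genes every ERRa KO array was above WT. Interferon gamma induces class II genes through Ciita, and of 13 measured genes of its response 4 were higher and 9 lower with a median of -0.03. At an unadjusted p under 0.05, 2 of them were higher and 2 lower, beside 6.22% and 6.2% of all genes. The GTPase genes Gbp3 and Igtp differed by -0.38 (limma adjusted p = 0.2) and -0.32 (limma adjusted p = 0.235), both with ERRa KO below WT. Cxcl10 (0.41, limma adjusted p = 0.305) and Irf1 (0.17, limma adjusted p = 0.337), picked after their values were seen, lay with ERRa KO above WT.

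**Figure D4:**
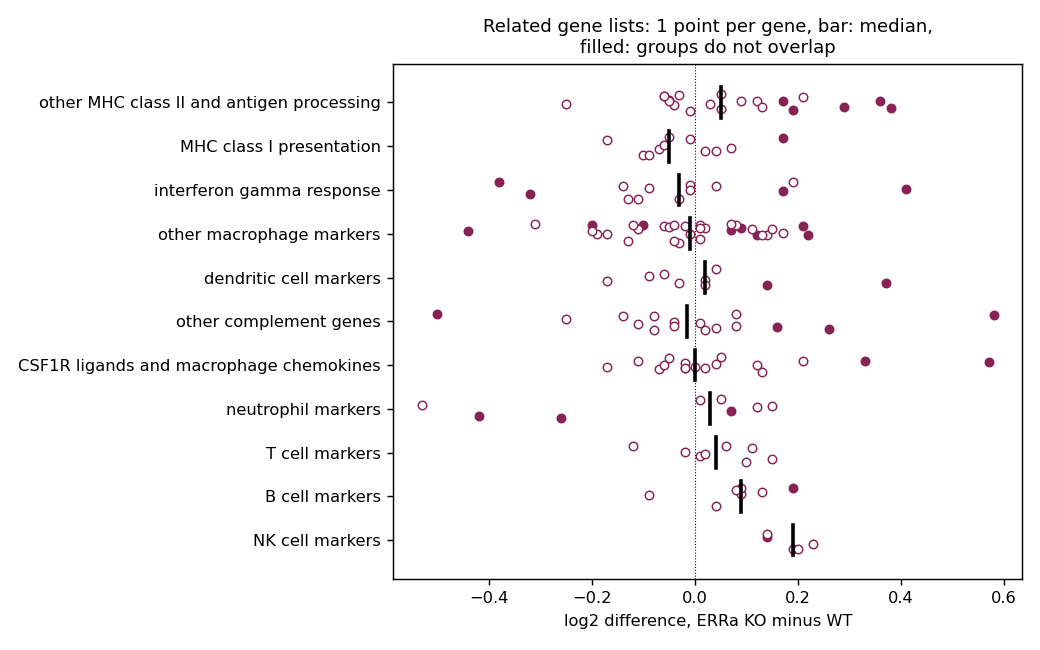
Log2 difference, ERRa KO minus WT (x axis), of each measured gene in 11 related lists (y axis), with a bar at the list median and filled points where the groups do not overlap. Medians run from -0.05 for class I presentation to 0.19 for NK cell markers.

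Markers of other cells that carry class II or C1q were read beside the members, and their part in the members' values was not tested. Dendritic cell markers had 9 of 10 measured, a median of 0.02 and mean levels of 4.72 to 4.75 in WT and 4.68 to 4.81 in ERRa KO arrays. In that list 5 genes were higher and 4 lower. The 2 of smallest p were Cd209a, which differed by 0.37 (limma adjusted p = 0.171), and Itgae, by 0.14 (limma adjusted p = 0.374). Flt3 (-0.09), Irf4 (-0.17), Batf3 (-0.06) and Zbtb46 (-0.03), picked after their values were seen, had lower means in ERRa KO kidneys, with overlapping groups. For B cells, 7 of 8 markers were measured, 6 higher and 1 lower. Their mean levels were 4.17 to 4.30 in WT and 4.21 to 4.38 in ERRa KO arrays. Cd79a differed by 0.19 (limma adjusted p = 0.228) and Pax5 by 0.09. Plasma cell markers averaged 5.38 to 5.48 in WT and 5.68 to 6.01 in ERRa KO arrays over 6 genes, and 5.46 to 5.51 and 5.46 to 5.62 over the 5 genes without Jchain. In that list Jchain, the joining chain of IgA and IgM, read 5.31, 4.80 and 5.12 in WT and 7.71, 8.26 and 5.96 in ERRa KO kidneys (difference 2.24, limma adjusted p = 0.135). ERRa KO replicate 3 was the low ERRa KO array for Jchain, and without it the adjusted p was 0.00915. Mzb1, of the same list, differed by 0.24 (limma adjusted p = 0.264), with ERRa KO above WT. Derl3 (-0.22, limma adjusted p = 0.34) and Sdc1 (-0.11, limma adjusted p = 0.536), picked after their values were seen, lay with ERRa KO below WT.

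Liver macrophage markers were read beside the Alb level of ERRa KO replicate 3, and that array did not stand apart in their mean. All 7 were measured, 5 higher and 2 lower, with mean levels of 4.24 to 4.34 in WT and 4.42 to 4.45 in ERRa KO arrays. All except Folr2 had group means below the array medians (5.01 to 5.05), so this mean is a weak measure of liver macrophage RNA. Carry-over of such RNA was not tested. Timd4 differed by 0.34 (limma adjusted p = 0.304) and Folr2 by 0.29 (limma adjusted p = 0.321). Timd4 read 3.26, 3.29 and 2.86 and Folr2 6.09, 5.69 and 6.01 in ERRa KO replicates 1 to 3, and both overlapped with WT. Clec4f, picked after its values were seen, differed by -0.07 (limma adjusted p = 0.77). It read 4.60, 4.58 and 4.64 in WT and 4.37, 4.58 and 4.66 in ERRa KO kidneys. Hepatocyte transcripts averaged 5.98 to 6.16 in WT arrays and 5.95 to 9.26 in ERRa KO arrays, highest in replicate 3.

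Blood and bystander cells were read in the same way. Neutrophil markers had 8 of 10 measured and mean levels of 3.93 to 4.13 in WT and 3.90 to 3.99 in ERRa KO arrays. Of the 8, 5 were higher and 3 lower with a median of 0.03. The 2 of smallest p were both lower, as Csf3r differed by -0.26 (limma adjusted p = 0.163) and S100a9 by -0.42 (limma adjusted p = 0.247), with S100a9 at 4.94, 4.59 and 5.10 in WT and 4.58, 4.32 and 4.47 in ERRa KO kidneys. S100a9, like the C1q genes, was highest in WT replicate 3. T cell markers had 8 of 10 measured with a median of 0.04, with Cd3g at -0.12 (limma adjusted p = 0.585) and Cd3e at 0.10 (limma adjusted p = 0.609). NK cell markers had 5 of 6 measured and a median of 0.19, all 5 with higher means in ERRa KO kidneys, among them Ncr1 (0.14, limma adjusted p = 0.393) and Nkg7 (0.23, limma adjusted p = 0.421). Mast cell markers had a median of -0.07 over 5 genes, with Mcpt4 at -0.23 (limma adjusted p = 0.198) and Tpsb2 at 0.16 (limma adjusted p = 0.502). Endothelial markers averaged 8.13 to 8.28 in WT and 8.04 to 8.21 in ERRa KO arrays, red cell and platelet markers 4.67 to 5.01 and 4.93 to 5.05, and fat transcripts 5.82 to 6.30 and 6.30 to 6.51. Over these and the lists above, 0 of 197 measured genes that are no members passed the threshold, while 24 were higher and 12 lower at an unadjusted p under 0.05, beside 6.22% and 6.2% of all genes.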

How the data were processed

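Affymetrix arrays of 3 WT and 3 ERRa KO kidneys were analysed, 1 array per sample. The values are log2 RMA levels made by the authors, per the submitters' processing notes, whose run settings no source used here states. RMA quantile normalizes arrays and compresses low levels. The authors' deposited table also holds a log2 fold change and an unadjusted p-value per probe set, and its header does not name the test. Its 6 value columns carry the opposite genotype to the sample records for all 45101 probe sets, while its fold change follows the records. After 64 control probe sets were left out, 45037 were tested. The annotation names 1 gene for 34945, several for 932 and none for 9160. For each of 18193 genes, the brightest probe set on average was used.

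Fits in R 4.3.3 used limma 3.58.1 with genotype as sole term (lmFit, then eBayes; two-sided tests) and gave ERRa KO minus WT, with Benjamini-Hochberg adjustment over all probe sets (members) or all genes (other genes) and a threshold of 0.05. No set test was run. The fits were tested on simulated data. Members and lists were chosen with earlier results of these data known. Named genes are all members, the 2 genes of smallest p in each list outside the members (nephron, liver, fat, endothelial and red cell lists as ranges), Esrra, Alb and the 5 genes most correlated with the C1q and with the MHC-II mean. The promoter motifs, the chromosome neighbours (such as Psmb8 and Tap1) and all other genes named, among them Csf1, Il34, Lyz1, C1ra, C1s1, Ciita, Rfx5, Rfxap, Rfxank, Ctss, Spi1, Derl3 and Sdc1, were added after the data were seen. Alternatives left out 1 array, added the replicate number as a block, weighted arrays, renormalized, modelled a variance trend, dropped dim probe sets, averaged probe sets or used a t-test. The variance trend was always set together with limma's robust option, so their effects cannot be told apart. Same-numbered arrays did not deviate together (correlations -0.04, 0 and -0.08). Any pair of arrays shared at most 131 identical values. The number of arrays limits the precision.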

Additional observations from a re-analysis of the deposited data

How the results depend on the processing

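Of the members, 0 probe sets were called in each alternative run, and 0 genes in each except the fit without WT replicate 2, where Cd68 was called, so that fits without 1 array called 0 to 1 member genes. With the replicate block, 0 member probe sets, 0 member genes and 0 other list genes were called, and Esrra stayed called at -2.93. Differences of C1qa, C1qb, C1qc, Cd68, Lyz2, H2-Aa, H2-Ab1 and Cd74 kept their sign in every alternative that gave them a value. They ranged from -0.34 to -0.23 for C1qa and from 0.31 to 0.51 for H2-Ab1. In the fit of 1 probe set per gene, the smallest limma adjusted p of H2-Ab1 was 0.0502, with a variance trend. The main fit of that kind gave H2-Ab1 0.168. Csf1r ranged from -0.06 to 0.01 without 1 array and was 0.01 with all its probe sets averaged, and Ptprc ranged from -0.11 to 0.02, both turning sign without WT replicate 3. Of other list genes, 0 to 1 were called without 1 array (Jchain, without ERRa KO replicate 3), 4 with a variance trend (H2-DMa, Cxcl16, Cd55 and Umod) and 3 above the median level, where fewer genes are tested (H2-DMa, Cxcl16 and Cd55). With the t-test Esrra kept its difference of -2.93 but had an adjusted p of 0.0584. C1qc and Cd68 lie below the median level and gave no value there. The median over member genes ranged from -0.08 to 0.03. Against 90 genes and 50 probe sets called over the whole array, fits without 1 array called 10 to 39 genes and 7 to 35 probe sets, the replicate block 18 and 3, array weights 133 and 92, a variance trend 379 and 437, the brighter part of the array 220 and 143, and the t-test 0 and 0. The cause of changes not explained by fewer arrays or fewer genes was not tested.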

Other observations

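The genes whose levels over the 6 arrays were most like the mean of the 3 C1q genes were Ptger3, a prostaglandin E receptor gene (Pearson r = 0.993), Ifi27l2a (0.985), Aldh18a1 (0.983), Mmgt2 (0.981) and Chek1 (0.978). They were taken from 1523 genes with an SD of at least 0.2 over the arrays. Of those, 101 exceeded 0.9, so likeness to this pattern is not particular to the 5 genes named. None of the 5 was past the threshold, with differences from -0.42 (Ptger3, limma adjusted p = 0.102) to -0.33 (Aldh18a1, limma adjusted p = 0.168).

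Fewer genes resembled the mean of the 3 MHC-II genes, 12 exceeding 0.9. The 5 most alike were 4930455C13Rik (0.969), Aox3, an aldehyde oxidase gene (0.968), Irs3 (0.954), Folr2, a folate receptor gene of macrophages (0.937), and Slc25a47, a mitochondrial carrier gene known from liver (0.932). Differences ranged from 0.28 to 0.50, and none passed the threshold. All these correlations span 2 genotypes and share the same 6 arrays, so they describe these arrays only. The MHC-II mean was highest in ERRa KO replicate 3 (9.71), where Alb stood out, and the correlations were not computed without that array.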
